A study of Mus musculus with 25 samples.

Results

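The transcripts described here are those of the mouse mitochondrial genome in tumours grown from the mouse melanoma line B2905, also named M4. They are the 37 genes of 55450 in the count table whose symbol starts with mt-, and comprise 2 rRNAs, 13 mRNAs and 22 tRNAs. C57BL/6 mice carried the tumours, and 25 tumours were sequenced as bulk RNA. Of these, 20 came from mice given an antibody against CTLA-4, an inhibitory receptor of T cells, and were labelled by outcome as responder (8 tumours that shrank), stable (6 tumours that held their size) or non-responder (6 tumours that grew). The other 5, called controls, came from mice given the isotype antibody IgG2b. Both antibodies were dosed at 10 mg/kg, 2 times a week for 2 weeks, starting at a mean tumour size of 75 mm3. All groups share 1 cell line and 1 host strain, outcome was assigned 10 to 11 days after the last dose, and no tumour from an untreated mouse was analysed here.

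The mitochondrial genome is a small circle that is transcribed from both strands into long precursors. The tRNAs lie between most of the other genes, and cutting them out of the precursor releases the rRNAs and mRNAs. The 2 rRNAs form the RNA core of the mitochondrial ribosome, which makes only the proteins of the 13 mRNAs, all of them subunits of oxidative phosphorylation complexes. The remaining subunits, the ribosomal proteins and the enzymes that transcribe and process the RNA are encoded in the nucleus.

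Total counts ranged from 8.765 to 34.3 M per tumour, with the highest median in controls (24.8 M) and the lowest in responders (14.1 M). Protein-coding genes held 87.4 ± 0.842% (SD, n = 5) of counts in controls, 86.1 ± 1.97% (SD, n = 6) among non-responders, 86.2 ± 1.86% (SD, n = 6) among stable tumours and 63.95 ± 18.8% (SD, n = 8) among responders. Responder 1 stood apart at 23.8%, responder 5 was at 87.0%, and the other 6 responders lay between 54.2 and 74.35%. The 7 melanocyte markers summed to 10504 to 17110 CPM (counts per M library counts) among controls, 723 to 13867 among non-responders, 228 to 504 among stable tumours and 303 to 722 among responders. The 5 T cell markers summed to medians of 8.41 CPM in controls, 63.1 among non-responders, 106 among stable tumours and 98.4 among responders, and the 5 macrophage markers to medians of 448, 839, 1677 and 781 CPM in the same order. Markers of muscle, fat and keratinocytes were also present, with medians of 380 to 905, 22.0 to 40.3 and 96.4 to 462.5 CPM over the 4 groups, and 0 markers of the 6 lists were at 0 throughout a group. In bulk tissue, fewer cells of a type and less RNA per cell cannot be told apart, and the part of cell composition in the results on mitochondrial transcripts was not tested. The number that opens each library's name runs by group, and the labels do not say what it stands for. Any order it gives cannot be told apart from group.

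The rRNA genes are neighbours. On chromosome M (GRCm38, plus strand) mt-Rnr1, the small-subunit 12S rRNA, spans 70 to 1024, the valine tRNA mt-Tv spans 1025 to 1093 and mt-Rnr2, the large-subunit 16S rRNA, spans 1094 to 2675. No base separates the 3 genes, so the tRNA is the spacer whose removal frees both rRNA ends. They are shown because the genes on either side of this tRNA held most of the mitochondrial counts and the tRNA almost none: the last 30 bases of mt-Rnr1 (chrM:995-1024), the whole of mt-Tv (chrM:1025-1093) and the first 30 bases of mt-Rnr2 (chrM:1094-1123), all 5′ to 3′ in lower case.
mt-Rnr1 end: aagcatactggaaagtgtgcttggaataat
mt-Tv: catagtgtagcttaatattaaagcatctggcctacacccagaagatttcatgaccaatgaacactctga
mt-Rnr2 start: actaatcctagccctagccctacacaaata
Over the 25 tumours mt-Rnr1 held 1374488 counts, mt-Rnr2 held 9905267 and mt-Tv held 3.

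The 2 rRNAs took a larger share of counts in responders and stable tumours than in the other groups. The labels name a total RNA kit but give the molecule as polyA RNA, so how rRNA was kept or removed is not known here. Together the rRNAs took 0.845 ± 0.176% (SD, n = 5) of counts in controls and 0.930 ± 0.0974% (SD, n = 6) among non-responders. They took 2.87 ± 2.23% (SD, n = 6) among stable tumours and 5.42 ± 3.95% (SD, n = 8) among responders. All 8 responders and all 6 stable tumours lay above every non-responder and every control. Within the higher groups the spread was wide: stable tumours ran from 1.32 to 7.28%, the highest being stable 5, and responders from 1.15% in responder 5 to 14.3% in responder 1. Without responder 1 the responder mean was 4.16 ± 1.80% (SD, n = 7), and without stable 5 the stable mean was 1.98 ± 0.599% (SD, n = 5).

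**Figure D1:**
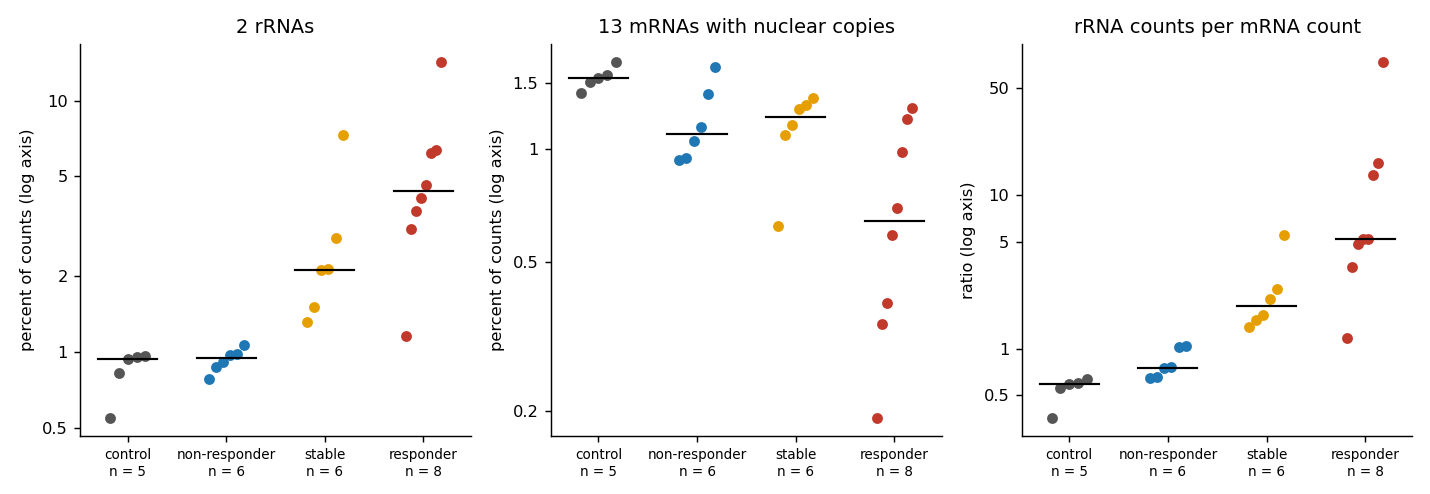
Percent of counts at the 2 mitochondrial rRNAs (left) and at the 13 mRNAs with their nuclear copies (middle), and the ratio of these sums (right), on log axes; each point is a tumour and each line a group median. The rRNA share of every stable tumour and responder exceeds that of every control and non-responder, and the rRNA to mRNA ratio has medians of 0.585, 0.754, 1.89 and 5.22 from control to responder.

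For mt-Rnr2, the 16S rRNA, the 5 controls had 4625, 6760, 7510, 8020 and 7593 CPM, where CPM are scaled by edgeR's trimmed mean of M values (TMM). The 6 non-responders ran from 6849 to 8992 CPM with a median of 7383, the 6 stable tumours from 11566 to 56096 with a median of 18480, and the 8 responders from 10129 to 373571 with a median of 39339. Responders and stable tumours did not overlap with controls or non-responders, while they overlapped with each other. Responder 1 had a TMM factor of 0.339, against 0.818 or more in the other 24 tumours, and its CPM are divided by that factor. In edgeR's quasi-likelihood test with Benjamini-Hochberg adjustment over 18031 genes, mt-Rnr2 rose in responders over non-responders by 3.42 ± 0.62 log2 units (SE, adjusted p = 0.000262). In responders over stable tumours it rose by 1.78 ± 0.58 (SE, adjusted p = 0.0196 by edgeR). The difference of stable tumours from non-responders was 1.64 ± 0.60 (SE) and missed the threshold of 0.05 (adjusted p = 0.0653 by edgeR), although all 6 stable tumours were higher.

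For mt-Rnr1, the 12S rRNA, the controls had 501.8, 765.0, 932.9, 1058 and 975.8 CPM. Non-responders ran from 538 to 1166 CPM with a median of 815, stable tumours from 970 to 15767 with a median of 1854, and responders from 843 to 47609 with a median of 5154. Except for responder 5, each responder (7 of 8) exceeded all non-responders, and 4 of 6 stable tumours did. The level rose in responders over non-responders by 3.64 ± 0.76 (log2, SE, adjusted p = 0.000729 by edgeR) and in stable tumours over non-responders by 2.31 ± 0.74 (log2, SE, adjusted p = 0.0365 by edgeR). Responders and stable tumours differed by 1.33 ± 0.68 (log2, SE), which did not pass (adjusted p = 0.123 by edgeR).

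Counted by comparison, 2 of 2 rRNAs were higher in responders than in non-responders, where 25.2% of all tested genes were called higher. In responders against stable tumours 1 of 2 was higher, with 20.5% of all genes called higher, and in stable tumours against non-responders 1 of 2 was higher, with 7.08% of all genes. Against controls, both rRNAs were higher in responders (36.1% of all genes called higher) and among stable tumours (22.2%). There mt-Rnr1 differed by 3.61 and mt-Rnr2 by 3.55 among responders (log2), and by 2.28 and 1.77 among stable tumours. Neither was called between non-responders and controls, where mt-Rnr1 differed by -0.03 ± 0.74 and mt-Rnr2 by 0.13 ± 0.61 (log2, SE) in edgeR. There 10.6% of all genes were called higher, DESeq2 called 0 of the 2, and 0 had an unadjusted p under 0.05. The comparisons against controls share the same 5 tumours, and those against non-responders the same 6.

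With each library's share of coding counts in the model, neither rRNA was called in responders over non-responders (mt-Rnr1 1.16, adjusted p = 0.213; mt-Rnr2 0.98, adjusted p = 0.0752, edgeR), and both turned negative in responders against stable tumours (-1.12 and -0.64, with 0 of all 18031 genes called there), while both were called in stable tumours over non-responders (2.29 and 1.62, adjusted p = 0.00624 and 0.00236, edgeR). In responders over controls mt-Rnr1 was then not called (1.05, adjusted p = 0.205 by edgeR), and mt-Rnr2 was (1.02, adjusted p = 0.0325 by edgeR). The rRNA counts are part of the total that the coding share is taken of, so more rRNA lowers that share. They were only a part of the counts outside coding genes: responder 1 held 14.28% rRNA at a coding share of 23.8%. Stable 5 held 7.283% rRNA and kept a coding share of 86.24%. What the other counts outside coding genes were is not described here. The coding share also nearly marks the responders, of which 7 of 8 lay below every tumour of the other groups. The fit with the share therefore cannot separate rRNA level, coding share and response, and no conclusion is drawn from the calls it lost. Both rRNAs were called in responders over non-responders with any 1 of the 14 tumours left out, but mt-Rnr2 in responders over stable tumours was not called without responder 1 (0.75 log2) or with library totals in place of TMM (0.98), mt-Rnr1 was called there without stable 5 (2.54), and mt-Rnr1 in stable tumours over non-responders was not called without stable 5 (1.10) or without any 1 of the 6 non-responders. Against controls, the stable calls were lost for both rRNAs without stable 5 (1.07 for mt-Rnr1 and 1.31 for mt-Rnr2) or control 1, and for mt-Rnr2 also without control 2.

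**Figure D2:**
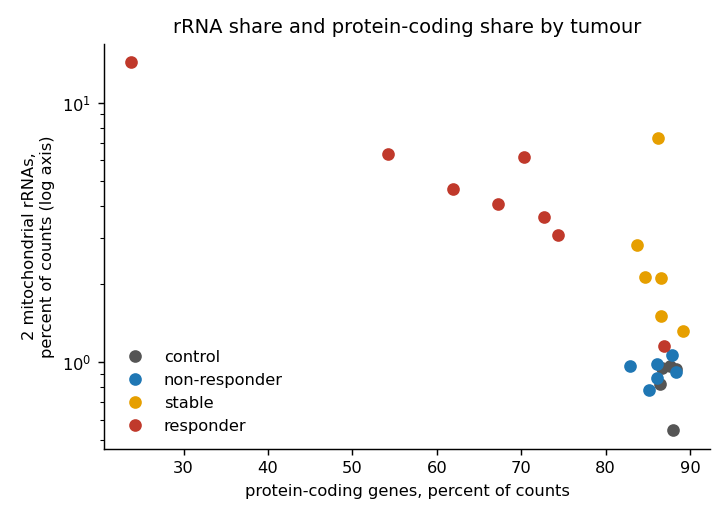
Percent of counts at the 2 mitochondrial rRNAs (log axis) against percent of counts at protein-coding genes, 1 point per tumour. Of 8 responders, 7 lie at a low protein-coding share and a high rRNA share, while stable tumours are raised at protein-coding shares of 83.8 to 89.2% that overlap those of non-responders and controls.

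The balance of the 2 rRNAs to each other was set against the outcome as a ratio within each tumour. The log2 ratio of mt-Rnr2 to mt-Rnr1 counts was 3.05 ± 0.12 (SD, n = 5) among controls, 3.22 ± 0.28 (SD, n = 6) among non-responders, 3.09 ± 0.66 (SD, n = 6) among stable tumours and 3.03 ± 0.27 (SD, n = 8) among responders. No pair of groups passed a two-sided exact permutation test of this ratio (lowest p = 0.222, adjusted p = 0.905 over 12 tests of 2 ratios). Stable 5 had a ratio of 1.83 against 2.96 to 3.58 in the other 5 stable tumours, with relatively more of the 12S rRNA.

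Of the 13 mRNA genes, 7 have near-identical copies in the nuclear genome. The copies are unprocessed pseudogenes on the minus strand of chromosome 1 (GRCm38) and lie together between 24611535 and 24616197, a span of 4663 bases. They are Gm29216 (mt-Co1), Gm28661 (mt-Co2), Gm10925 (mt-Atp6), Gm28437 (mt-Co3), Gm28438 (mt-Nd3), Gm10222 (mt-Nd4l) and Gm28439 (mt-Nd4). Of the 7, 5 were identical to the start of the mitochondrial gene over their whole length. The other 2 each differed by 1 base over the aligned part, which is all of Gm28438 and the 483 bases of Gm29216 from its base 10 on, out of 492. The changed base is shown in capitals in windows of 60 bases of the GENCODE M21 transcripts, with the gene on chromosome M and the copy on chromosome 1. In mt-Nd3 (chrM:9459-9518) and Gm28438 (chr1:24613060-24613119) the change from gene to copy is T3C, and in mt-Co1 (chrM:6390-6449) and Gm29216 (chr1:24616129-24616188) it is A1066T, with positions counted from 1 at the 5′ end of the mitochondrial gene.
mt-Nd3: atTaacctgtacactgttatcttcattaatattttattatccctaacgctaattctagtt
Gm28438: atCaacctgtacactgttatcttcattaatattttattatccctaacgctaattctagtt
mt-Co1: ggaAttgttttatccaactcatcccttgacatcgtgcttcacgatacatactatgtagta
Gm29216: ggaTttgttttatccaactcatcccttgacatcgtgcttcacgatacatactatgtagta
A read that lies within the shared stretch and does not cover such a base fits both places. The shared stretch is not the whole gene in every pair: it is bases 1063 to 1545 of mt-Co1 (31.3% of the gene) and bases 1 to 876 of mt-Nd4 (63.6%), against 98.99% or more of the other 5 genes. Reads from the rest of mt-Co1 and mt-Nd4 have no near-identical copy.

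A more diverged copy shows the contrast. For mt-Co2 (chrM:7457-7516), the identical copy Gm28661 (chr1:24615062-24615121) and the copy Gm13341 on the minus strand of chromosome 2 (chr2:22587471-22587530) are set side by side in an ungapped window of 60 bases, with the 6 bases at which Gm13341 differs in capitals.
mt-Co2: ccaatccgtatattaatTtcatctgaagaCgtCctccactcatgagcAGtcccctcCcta
Gm28661: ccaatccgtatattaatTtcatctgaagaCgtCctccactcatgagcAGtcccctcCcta
Gm13341: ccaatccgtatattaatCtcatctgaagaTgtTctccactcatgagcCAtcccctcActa
Gm13341, with 95.9% identity to mt-Co2 over 684 aligned bases and a gap of 12 bases, held at most 31 counts in any tumour. Gm28661 held means of 46120 counts in controls, 27518 among non-responders, 28707 among stable tumours and 13605 among responders, where mt-Co2 itself held means of 3493, 2181, 829 and 914.

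The share of a pair's counts placed at the nuclear copy differed between genes and between tumours. It had a median of 95.1% for mt-Co2 over the 25 tumours, 85.5% for mt-Co3, 81.6% for mt-Atp6, 75.9% for mt-Nd4l, 57.1% for mt-Nd3, 13.2% for mt-Co1 and 0.309% for mt-Nd4, the pair of genes whose copies are partial. For mt-Co3 the share ran from 77.3 to 87.0% among non-responders and from 84.0 to 94.8% among responders. In responder 1 the share of mt-Co2 was 20.5%. Which of the 2 places the reads came from cannot be told apart from these counts, so each of the 7 genes is given by its own entry and with its copy added, a sum chosen after the counts had been seen.

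**Figure D3:**
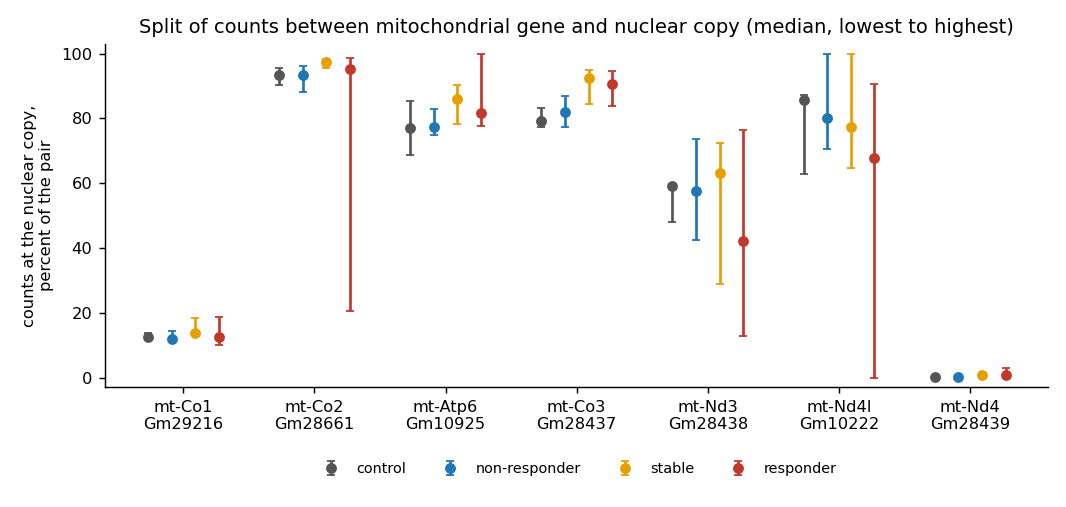
Percent of the counts of each gene and its near-identical nuclear copy that was placed at the copy, as median with lowest and highest tumour in each group. The share is at least 77.3% for mt-Co3 and at most 18.8% for mt-Co1 in these tumours, and for mt-Co2 responder 1 is at 20.5%.

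The 13 mRNAs with their copies took 1.55 ± 0.109% (SD, n = 5) of counts in controls, 1.19 ± 0.284% (SD, n = 6) among non-responders, 1.14 ± 0.273% (SD, n = 6) among stable tumours and 0.711 ± 0.410% (SD, n = 8) among responders. All 8 responders and all 6 stable tumours were below every control, while 5 of 8 responders were below every non-responder. The ratio of rRNA to mRNA counts, which does not depend on library scaling, ran from 0.354 to 0.639 among controls, 0.644 to 1.05 among non-responders, 1.39 to 5.55 among stable tumours and 1.17 to 74.4 among responders. Controls, non-responders and stable tumours did not overlap in this ratio, and responders overlapped only with stable tumours. The gap of controls to non-responders was narrow (0.639 against 0.644). The ratio does depend on how much rRNA each library kept, which is not known here, and its differences between groups were not tested.

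Complex IV, cytochrome c oxidase, has its catalytic core in mt-Co1, mt-Co2 and mt-Co3. The controls had 5759, 4684, 5797, 5013 and 5180 CPM of mt-Co1, which holds the heme and copper site where oxygen is reduced. Its level ran from 3137 to 5584 CPM in non-responders with a median of 3784, from 2808 to 5565 among stable tumours with a median of 4710, and from 1411 to 5084 among responders with a median of 2821. The groups overlapped, and responders differed from non-responders by -0.38 ± 0.24 (log2, SE, adjusted p = 0.184 by edgeR), while against controls mt-Co1 fell by 0.77 log2 units (adjusted p = 0.00922 by edgeR). With that coding share in the model the difference from controls was -0.39 and was not called (adjusted p = 0.293 by edgeR).

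The mRNA with the lowest fold change was mt-Co3, the third core subunit. Its own entry held 537.9, 526.2, 643.5, 522.4 and 644.0 CPM in controls, 244 to 641 among non-responders with a median of 329, 117 to 201 among stable tumours with a median of 138, and 44.8 to 227 among responders with a median of 97.7. Every responder and every stable tumour lay below every non-responder. It fell in responders against non-responders by 1.86 log2 units (SE 0.29, adjusted p = 8.04e-05 by edgeR) and among stable tumours by 1.34 (SE 0.32, adjusted p = 0.00758 by edgeR). With Gm28437 added, the medians were 2862, 1935, 1975 and 944 CPM in controls, non-responders, stable tumours and responders, and 6 of 8 responders lay below every non-responder, the exceptions being responders 5 and 6. The summed level fell in responders by 0.95 (SE 0.28, adjusted p = 0.00877 by edgeR), while stable tumours differed from non-responders by -0.19 (SE 0.30, adjusted p = 0.720 by edgeR). The lower mt-Co3 of stable tumours was thus a call of the own entry and not of the sum.

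For mt-Co2, which carries the copper site that takes electrons from cytochrome c, adding the copy turned the direction. Its own entry differed by 0.21 ± 0.62 (log2, SE) between responders and non-responders, with 589 CPM in responder 1 and 11.0 to 101 in the other 7. With Gm28661 added the difference was -0.43 ± 0.24 (adjusted p = 0.145 by edgeR). Against stable tumours the summed mt-Co2 fell in responders by 0.62 log2 units (adjusted p = 0.0475 by edgeR), and this call was lost on leaving out any 1 of 10 of the 14 tumours. The summed mt-Co3 also fell there, by 0.75 (adjusted p = 0.0388 by edgeR), a call lost on leaving out any 1 of 9. With the coding share in the model, where 0 of all genes were called in this comparison, the values were -0.31 and -0.34.

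Complex I, the NADH dehydrogenase that feeds electrons into the chain, has 7 subunits here. The mt-Nd3 subunit, which lies at the junction of the membrane and peripheral arms, had 133.5, 102.8, 88.64, 99.19 and 107.4 CPM in controls, 39.2 to 130 among non-responders, 28.5 to 64.1 among stable tumours and 17.6 to 65.0 among responders. It fell in responders against non-responders by 0.81 (log2, adjusted p = 0.0138 by edgeR), and with Gm28438 added by 1.17 (adjusted p = 0.00127 by edgeR). Of 8 responders, 4 lay below every non-responder by own entry and 7 with the copy added. The own-entry call was lost without non-responder 3 (-0.56) and the summed call was not lost on leaving out any 1 tumour.

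The largest fold change among mRNAs was that of mt-Nd4l, a small membrane subunit, whose 2727 counts over 25 tumours are the fewest of the class. Its own entry held 2.29, 8.92, 6.43, 3.30 and 3.79 CPM in controls, 0 to 7.64 among non-responders, 0 to 10.2 among stable tumours and 2.53 to 25.7 among responders. The difference of 1.99 ± 0.96 (log2, SE) from non-responders was not called (adjusted p = 0.0895 by edgeR), and with Gm10222 added it was 0.57 ± 0.36 (adjusted p = 0.195 by edgeR). The groups overlapped on both scales.

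The only mRNA on the minus strand, mt-Nd6, is read from the other precursor. It had 34.56, 25.39, 30.28, 31.12 and 27.63 CPM in controls, 11.2 to 38.1 among non-responders with a median of 19.1, 10.5 to 35.6 among stable tumours with a median of 14.7, and 13.9 to 33.7 among responders with a median of 25.4. Responders and non-responders overlapped (0.25 ± 0.27 log2, SE, adjusted p = 0.454 by edgeR), and mt-Nd6 was lower in stable tumours than in controls by 0.78 (adjusted p = 0.0413 by edgeR), a call lost on leaving out any 1 of 9 of the 11 tumours. The log2 ratio of mt-Nd6 to mt-Nd5, the neighbouring gene on the opposite strand whose end overlaps it, was -2.78 ± 0.54 (SD, n = 5) among controls, -3.16 ± 0.68 (SD, n = 6) among non-responders, -3.11 ± 0.73 (SD, n = 6) among stable tumours and -2.97 ± 0.58 (SD, n = 8) among responders. None of the 6 comparisons passed the two-sided exact permutation test (lowest p = 0.338, adjusted p = 0.905). The other complex I genes, mt-Nd1, mt-Nd2, mt-Nd4 and mt-Nd5, differed by -0.52, 0.10, 0.02 and 0.15 (log2) between responders and non-responders, and none was called.

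Complex III is represented by mt-Cytb, cytochrome b, which has no near-identical copy. Its levels were 723.5, 755.0, 833.8, 867.1 and 876.3 CPM in controls, 277 to 849 among non-responders, 157 to 615 among stable tumours and 173 to 537 among responders. It fell in responders against non-responders by 0.77 (log2, SE 0.28, adjusted p = 0.0280 by edgeR), with 4 of 8 responders below every non-responder, and leaving out responder 1, 4 or 7 or non-responder 2 or 3 ended the call (-0.91 to -0.60 over all omissions). Every responder and every stable tumour was below every control, and it fell by 1.34 among responders (adjusted p = 0.000379 by edgeR) and by 0.94 among stable tumours (adjusted p = 0.0194 by edgeR).

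The ATP synthase genes mt-Atp8 and mt-Atp6 overlap by 43 bases (chrM:7927-7969), shown because a read inside this stretch belongs to both and because the nuclear copy Gm10925 starts with it.
mt-Atp8 and mt-Atp6: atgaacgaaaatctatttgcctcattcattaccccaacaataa
Between responders and non-responders, mt-Atp8 differed by -0.48 ± 0.31 and mt-Atp6 by -0.96 ± 0.56 (log2, SE), and neither was called. Against controls both fell in responders, by 0.79 and 1.35 (adjusted p = 0.0368 and 0.0478 by edgeR), calls lost on leaving out any 1 of 8 and of 9 of the 13 tumours, and the mt-Atp6 sum with Gm10925 fell by 1.01 (adjusted p = 0.00393 by edgeR). With the coding share in the model none of these 3 was called (-0.57, -1.25 and -0.75).

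**Figure D4:**
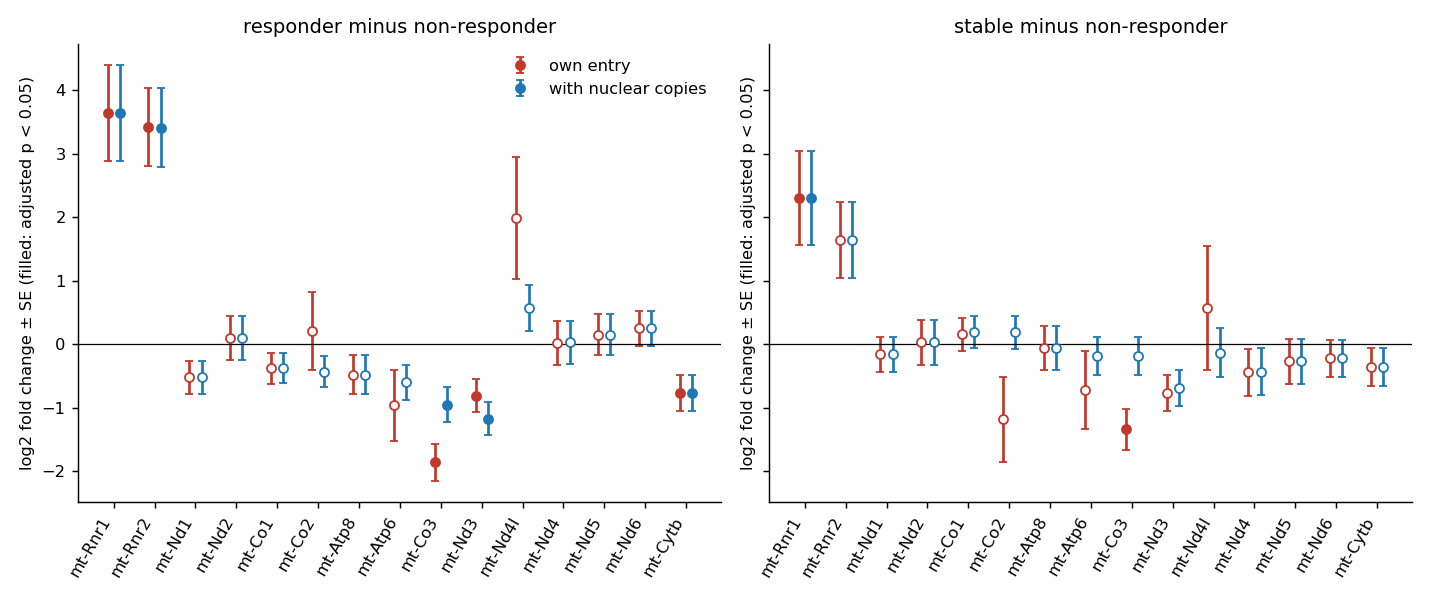
Log2 fold change with standard error of the 15 tested members in genome order, in responders (left) and stable tumours (right) against non-responders, by own entry and with the near-identical nuclear copy added; filled points have an adjusted p under 0.05. The rRNAs are positive in both panels, and mt-Co3 in stable tumours moves from -1.34 to -0.19 once its copy is added.

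As a class, 3 of 13 mRNAs (mt-Co3, mt-Nd3 and mt-Cytb) were lower in responders than in non-responders, a share near the 23.8% of all genes called lower, and the median over the 13 was -0.38 (log2) against 0.05 over all genes tested. With copies added, again these 3 were called (23.8% of all genes lower, 25.2% higher). With that coding share in the model, mt-Nd3 and mt-Cytb were not called by own entry and mt-Co2 was (-2.15), and with copies added as well 0 of 13 were called (4.96% and 4.68% of all genes lower in these fits). Between responders and stable tumours edgeR called 0 of 13 (17.8% of all genes lower), with 2 at an unadjusted p under 0.05 and 2 called by DESeq2 (1 higher and 1 lower), and 2 of 13 with copies added (17.8% lower and 20.5% higher over all genes). Between stable tumours and non-responders it called 1 lower (7.86% of all genes lower) and, with copies added, 0, with 1 at an unadjusted p under 0.05 (7.86% of all genes lower and 7.07% higher). DESeq2 was run on own entries alone and called 2 there.

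Against controls, 7 of 13 mRNAs were lower in responders (28.9% of all genes lower) and 8 of 13 with copies added (28.9% lower and 36.1% higher over all genes). With the coding share in the model 4 were lower there (mt-Co2, mt-Co3, mt-Nd3 and mt-Cytb, with 19.4% of all genes lower), and 3 with copies added as well (19.1%). In stable tumours 4 were lower (19.6% of all genes lower), and 3 with copies added (19.7% lower and 22.1% higher over all genes). No mRNA was called between non-responders and controls by edgeR or DESeq2 (3.29% of all genes lower), nor with copies added (3.3% lower and 10.6% higher over all genes), and 0 had an unadjusted p under 0.05, while all 13 values were negative and their median was -0.39 (log2).

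Per length, mt-Rnr2 and the complex IV mRNAs led in controls and non-responders. This is an order of counts in these libraries. How rRNA was kept or removed is not known here, so the place of the rRNAs among the mRNAs may not be that in the tumours. In controls the median level with copies was 4747 CPM per kb for mt-Rnr2, 3808 for mt-Co1, 3650 for mt-Co3, 2644 for mt-Co2, 1362 for mt-Atp6 and 977 for mt-Rnr1. In non-responders mt-Atp6 (917) also stood above mt-Rnr1 (853), while among stable tumours mt-Rnr1 (1942) stood above mt-Atp6 (904). The lowest were mt-Nd6 at 58.35 and mt-Nd4l at 80.8 CPM per kb. In responders mt-Rnr2 was at a median of 24867 and mt-Rnr1 at 5397 CPM per kb, above every mRNA, with mt-Co1 at 2060. By own entry alone mt-Co2 would stand at 170 CPM per kb in controls, so its place in the order rests on its copy.

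**Figure D5:**
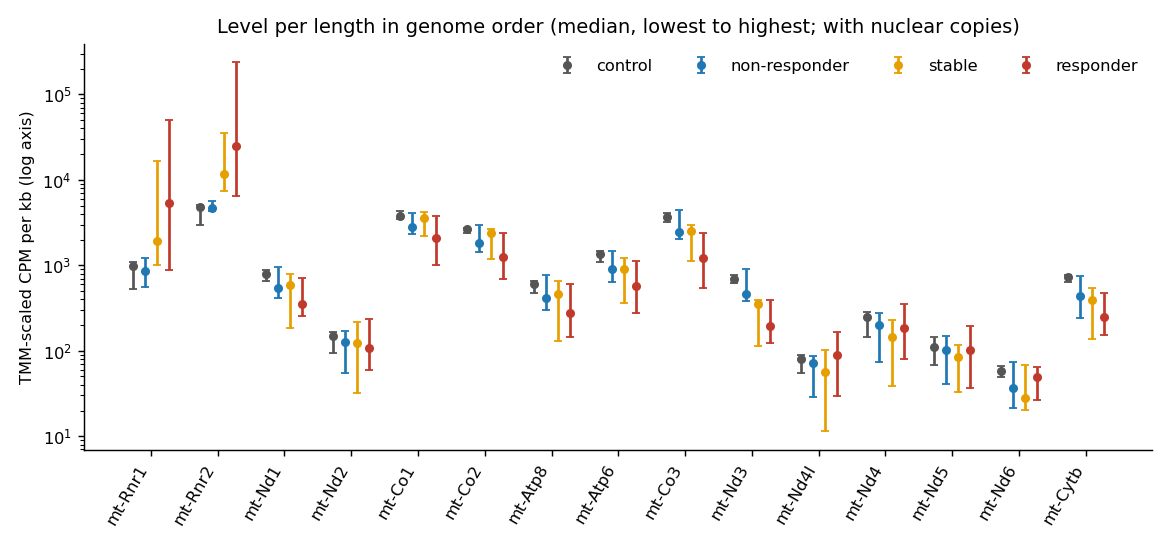
TMM-scaled CPM per kb of gene length (log axis) for the 15 tested members in genome order, with near-identical copies added, as median with lowest and highest tumour per group. The responder and stable medians exceed those of controls at mt-Rnr1 and mt-Rnr2 and lie below them at mt-Co1, mt-Co3 and mt-Cytb.

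The tRNAs were nearly absent from the libraries. Of 22 genes, each 59 to 75 bases long, 17 had no count in any tumour and none passed the filter on low counts, so none was tested. The other 5 held 73 counts of 478874417. Of these, 62 belonged to mt-Tm (chrM:3845-3913, plus strand), the methionine tRNA used for both initiation and elongation in mitochondria, which is shown as the 1 tRNA with counts in most tumours.
mt-Tm: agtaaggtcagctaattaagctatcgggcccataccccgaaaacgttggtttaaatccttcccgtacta
It had counts in 21 of 25 tumours, with 4, 6, 8, 9 and 2 among controls, 0 to 2 among non-responders, 0 to 2 among stable tumours and 0 to 7 among responders. A count of 0 allows a level of up to 3 counts, which is 0.0874 to 0.342 CPM by library, for counting error only. With no filter on low counts, edgeR called 1 of these 5 tRNAs in 1 of 6 comparisons: mt-Tm was lower in stable tumours than in controls (fitted log2 difference -1.99 ± 0.71, SE, adjusted p = 0.0397, where 13.6% of all genes were lower). Its counts in these groups met at 2, and a fitted difference at such counts depends on the prior count.

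The nuclear partners of these transcripts were compared by list. Of 85 tested nuclear subunits of oxidative phosphorylation, 83 were lower in responders than in non-responders and 0 higher, where 23.8% of all genes were lower and 25.2% higher (median -0.92 log2 against 0.05 over all genes), including the complex IV subunits Cox8b (-2.65) and Ndufa4 (-1.90). Cox8b was near the floor in responders, at a mean of 0.193 CPM where 3 counts are 0.142 to 0.342 CPM by library. In non-responders it averaged 1.36 ± 1.45 CPM (SD). Of 82 genes named as mitochondrial ribosomal proteins, 68 were lower and 1 higher (median -0.56). Mrpl42 (-1.22) and Mrps36 (-1.07) were among the lower, and Mrps10, the 1 higher, was at 0.35. The list goes by gene name, and the product of Mrps36 is not a part of the ribosome. With that coding share in the model, 15 of the 85 (median -0.59) and 4 of the 82 (median -0.32) were lower, with 4.96% of all genes. Of the genes named here Ndufa4 (-1.41) and Mrpl42 (-0.78) kept their calls in that fit, and Cox8b (-2.09), Mrps36 (-0.47) and Mrps10 (0.39) did not. Between stable tumours and non-responders, where mt-Rnr1 was higher, 4 of 85 subunits and 2 of the 82 genes named as ribosomal proteins were lower and none higher, shares below the 7.86% of all genes called lower and the 7.08% called higher.

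The other nuclear lists are read against the same background of 25.2% of all genes higher and 23.8% lower in responders than in non-responders. Of 42 genes that make and process mitochondrial RNA, 4 were higher and 15 lower (median -0.17 log2). The transcription termination family members Mterf1b and Mterf3 rose by 1.18 and 0.49, while Hsd17b10, a subunit of the enzyme that cuts the 5′ ends of tRNAs, fell by 1.03, and Slirp, which stabilises mitochondrial mRNAs, fell by 0.82. Of 12 genes of mitochondrial DNA replication, 2 were higher (Polg2, the accessory subunit of the DNA polymerase, by 0.86, and Tk2, by 0.29) and 2 lower (the helicase Twnk and Rrm2b, at -0.40 and -0.39), both counts under the background. Of 22 genes listed as mitochondrial aminoacyl-tRNA synthetases, not all of them necessarily for mitochondria alone, 4 were higher and 5 lower, also under it, with Lars2 at 3.99 and Nars2 at 0.47 among the higher and Kars (-0.84) and Iars2 (-0.78) among the lower. Lars2 averaged 431.7 ± 673 CPM in responders and 27.3 ± 23.3 among non-responders (SD, n = 8 and 6), and with that coding share in the model it was at 1.13 (adjusted p = 0.426 by edgeR). In the same fit 1 of the 42 was higher and 1 lower, 0 of the 12 were called, and 0 of the 22 were higher and 1 lower, with 5.08% of all genes higher and 4.96% lower. Of the genes named from these 3 lists Mterf3 (0.41, adjusted p = 0.0172) and Kars (-0.46, adjusted p = 0.0480) kept their edgeR calls. The others did not: Mterf1b was at 0.67, Hsd17b10 at -0.54, Slirp at -0.27, Polg2 at 0.87, Tk2 at 0.32, Twnk at -0.42, Rrm2b at -0.02, Nars2 at 0.17 and Iars2 at -0.52.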

How the data were processed

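Expression was measured by bulk RNA sequencing of 25 tumours. Per the submitters' processing notes, bcl2fastq 2.17, Trimmomatic, STAR 2.5.1 and RSEM 1.2.22 were used with build mm10. The authors deposited expected counts (estimated counts, 5.64% of values not whole) for 55450 genes, which were rounded, although whole counts had been planned for. The authors also deposited RPKM values for 19522 genes, which hold 0 mitochondrial entries. The labels name a total RNA kit but give the molecule as polyA RNA, which bears on rRNA and tRNA and was not resolved. All gene identifiers match GENCODE M21 (GRCm38), the source of coordinates and sequences.

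Genes passing filterByExpr (18031) were tested with edgeR 4.0.16 in R 4.3.3 (TMM, 4 group means over all 25 tumours, robust quasi-likelihood F tests, two-sided, Benjamini-Hochberg adjusted p under 0.05 over all genes). The tests were checked on simulated counts with the same spread for all genes and a small set of genes changed in responders. That check does not cover a shift in composition such as that of responder 1. DESeq2 1.42.0, other scalings, filters, a covariate and leaving out tumours were alternatives. Copies were found with BLAST 2.17.0 (at least 99% identity over at least 90% of the copy). Ratios used a pseudocount of 0.5. Sums over a class carry no test.

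Members and lists were chosen with earlier results of these data known. Levels, by tumour in controls and as ranges in the other groups, were given for both rRNAs, mt-Nd6, mt-Co1 and the mRNAs with the largest and smallest fold change of responder over non-responder. Of each nuclear list, up to 2 called genes at either end with at least 1 CPM were named. Values for mt-Co2, mt-Nd3 and mt-Cytb were added after seeing them. Groups come from the labels' titles, tumour numbers are in accession order and pair nothing, and no 2 tumours agreed within counting noise (smallest chi-square per gene 15.49). Nothing beyond an id per tumour says that they are separate animals, so p-values measure the spread between these tumours.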

Additional observations from a re-analysis of the deposited data

Results flagged for a closer look

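Of 44 sets of 5 to 8 tumours checked, 12 had a tumour far from the others, where chance gives about 1 in 20 separate sets. These sets share tumours and counts, so the 12 are not independent and the rate is no test of them. Responder 1 was apart in its rRNA share (14.28% of counts, others 1.152 to 6.335%), in mt-Rnr1 (47609 CPM, others up to 8428) and in mt-Rnr2 (373571 CPM, others up to 69122). Stable 5 was apart in its rRNA share (7.283%, others 1.315 to 2.834%), in mt-Rnr1 (15767 CPM, others up to 3036), in mt-Rnr2 (56096 CPM, others up to 23551), in mt-Nd6 (35.64 CPM, others up to 17.75) and in the log2 ratio of mt-Rnr2 to mt-Rnr1 (1.83, others at least 2.96). Stable 3 was low in its mRNA share (0.3726%, others at least 0.64%) and in that share with nuclear copies (0.6221%, others at least 1.091%). Non-responder 3 was high in mt-Nd6 (38.11 CPM, others up to 19.22). Control 1 was high in the log2 ratio of mt-Nd6 to mt-Nd5 (-1.84, others up to -2.88).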

How the results depend on the processing

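No paired analysis was possible because tumour numbers follow accession order and the labels give each tumour only an id of its own. The planned limma fit on RPKM was not run, since the RPKM table as analysed holds 0 mitochondrial entries. Sums with nuclear copies were chosen after seeing the data. Of the class counts recomputed under settings other than leaving out a tumour, 154 stayed within 1.5 times and 26 did not. The 154 include the tRNA counts of every setting with a low-count filter. There 0 tRNAs were tested and the count was fixed at 0, so the 154 do not measure stability. The cause of each change was not tested. Few counts limit what can be said of the tRNAs (73 counts) and mt-Nd4l, and the reason for the few counts was not tested.

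In responders against non-responders, the coding share as covariate left 0 rRNAs called, and with copies summed as well 0 mRNAs and 0 rRNAs. Over all genes the covariate called 5.08% higher and 4.96% lower there, and 4.79% and 4.68% with copies. In responders against stable tumours 0 rRNAs were called under library totals, the fit of only the groups compared, the covariate, or covariate with copies, and DESeq2 and the summed copies each called 2 mRNAs. With the covariate 0 of all genes were called in this comparison, with or without copies. In stable tumours against non-responders DESeq2, the fit of only the groups compared and the covariate called 2 mRNAs, summed copies with or without covariate 0, and for rRNAs library totals, the fit of only the groups compared and the covariate with or without copies called 2 and no low-count filter 0. Over all genes the covariate called 8.38% higher and 9.16% lower there (8.42% and 9.17% with copies), and no low-count filter 2.09% and 3.69%. In responders against controls the covariate called 4 mRNAs and 1 rRNA, and with copies 3 and 1. Over all genes it called 25.9% higher and 19.4% lower there, and 25.8% and 19.1% with copies. In stable tumours against controls DESeq2 called 1 rRNA, and no low-count filter 0 rRNAs and 1 tRNA (10.3% of all genes higher and 13.6% lower with no filter). The rRNA calls here were all higher, and the mRNA and tRNA calls lower except 1 mRNA of DESeq2 in responders against stable tumours. Shares of all genes are not given for DESeq2, library totals and the fit of only the groups compared. Changes in these counts are therefore not read as particular to the members.

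Leaving out 1 tumour gave 1 to 4 mRNAs and 2 rRNAs in responders against non-responders, 0 to 2 and 0 to 2 in responders against stable tumours, 1 to 2 and 0 to 1 in stable tumours against non-responders, 5 to 7 and 2 in responders against controls, 3 to 4 and 0 to 2 in stable tumours against controls, and 0 to 2 and 0 in non-responders against controls. The share of all genes called in each of these fits is not given, so the ranges are not read as particular to the members.

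Log2 differences that changed sign were mostly small. With the covariate, responders against stable tumours were at -1.12 for mt-Rnr1 and -0.64 for mt-Rnr2, the same with copies summed. mt-Co2 in responders against non-responders was at -0.75 under library totals, -2.15 with the covariate, -0.43 with its copy and -0.11 with both. Against stable tumours it was at -0.98, -0.62 and -0.31 (covariate, copy, both), in stable tumours against non-responders at 0.19 and 0.20 (copy, both), and in responders against controls at 0.01 under the stricter filter. mt-Nd2 was at -0.18, -0.11 and -0.07 under library totals (responders against non-responders, responders against stable tumours, stable tumours against non-responders), at -0.00 and -0.03 with no filter (the first and last of these), and at 0.03 in responders against controls under the stricter filter. mt-Nd3 in responders against stable tumours was at 0.03 (TMM from nuclear protein-coding genes), 0.07 (stricter filter), 0.00 (only the groups compared) and 0.09 (covariate). In responders against non-responders mt-Nd4 was at -0.28 (library totals) and -0.09 (no filter), mt-Nd5 at -0.17 (library totals), and mt-Nd6 at -0.11 (library totals, covariate, and covariate with copies). The stricter filter put mt-Nd5 in responders against controls at 0.08 and mt-Rnr1 in non-responders against controls at 0.00. mt-Nd4l in stable tumours against non-responders was at -0.13 and -0.14 (copy, both).

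As differences of medians, the log2 ratio of mt-Rnr2 to mt-Rnr1 was 0.19 in stable tumours against non-responders, and that of mt-Nd6 to mt-Nd5 was -0.12 in responders against stable tumours, 0.03 in responders against controls and 0.15 in stable tumours against controls. Over omissions of 1 tumour the first ratio ran from -0.10 to 0.02 (responders against controls), -0.31 to 0.04 (responders against stable), -0.06 to 0.29 (stable against controls) and -0.23 to 0.12 (stable against non-responders), and the other from -0.12 to 0.27 (stable against non-responders), -0.08 to 0.27 (responders against stable) and -0.29 to 0.04 (responders against controls).

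Single genes that changed sign on such omissions were mt-Rnr1 in non-responders against controls (-0.17 to 0.07), mt-Nd2 in responders against non-responders (-0.07 to 0.23), responders against stable (-0.12 to 0.31), stable against non-responders (-0.20 to 0.23) and stable against controls (-0.42 to 0.01), mt-Co2 in responders against non-responders (-1.12 to 0.39) and controls (-1.51 to 0.02), and mt-Nd3 in responders against stable (-0.15 to 0.11). In responders against non-responders mt-Nd4 ran from -0.15 to 0.15 and mt-Nd5 from -0.02 to 0.29, and against controls mt-Nd5 from -0.23 to 0.06. In stable tumours against non-responders mt-Nd1 ran from -0.29 to 0.02, mt-Atp8 from -0.21 to 0.14 and mt-Nd6 from -0.55 to 0.07, and against controls mt-Nd4l from -0.60 to 0.16.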
